A study of Mus musculus with 33 samples.

Results

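Long noncoding RNA (lncRNA) genes make transcripts that are not translated into protein. The RNA measured here came from numbered genomic regions that fall entirely within a single RefSeq gene, one annotated as lncRNA on the mouse build GRCm38.p6. Of the 49745 regions in the tables, 26591 lay inside 1 gene, 3360 of these lay inside one of 2161 lncRNA genes, and 1060 regions in 825 lncRNA genes had at least 50 estimated counts summed over the 24 libraries. The members were chosen by that summed count, so their levels are a description: the member just inside the limit had 50.0 counts and the region just outside it had 49.8, and 446 of the 3360 had none. Member regions were 251 to 10287 bases long, with a median of 1373. Most genes (686) held 1 member region, 139 held several, and Pvt1 held 15. Names are mostly systematic, with 651 Gm or LOC names and 130 Rik names, so most of these genes carry no assigned function.

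LncRNAs act in the nucleus or the cytoplasm, as scaffolds for chromatin proteins, as hosts of small RNAs, or through the act of transcription across a neighbouring gene or enhancer. Many are unspliced or spliced at low level and are made from enhancers, where RNA polymerase II transcribes open chromatin. In B cells, activation reshapes enhancer use, and RNA from the intergenic and intronic sequence around induced genes rises with it. ZMYND8 is a chromatin reader that binds modified histones and is known to act at enhancers.

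The cells were CH12, a B cell lymphoma line from mouse in which immunoglobulin class switching can be induced. The 8 groups of 3 libraries were the parental line (wild type, WT), 1 clone of it that is also WT, and the ZMYND8 knockout clones KO1 and KO2, each cultured unactivated or activated for 48 hours. The stimulus is not named in the labels. Each knockout line is 1 clone, and the 3 cultures of a group are called biological repeats with no word on how far they are separate, so the p-values measure the spread between these cultures. Total RNA depleted of ribosomal RNA was sequenced, which keeps unspliced and nonpolyadenylated transcripts.

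Libraries held 28.99 to 34.07 M estimated counts, and 0.0332% to 0.0645% of a library fell in the lncRNA regions. Levels are given in CPM, the counts scaled to library size and expressed per M. WT unactivated replicate 3 and WT clone unactivated replicate 2 stood apart: their summed RNA from regions in coding genes was 10750 and 11340 CPM, while the other 10 unactivated libraries spanned 7837 to 10040 CPM. LncRNA results found to rest on them are given with and without them. The regions inside Zmynd8 read 1.25 to 3.24 CPM in WT and 1.63 to 4.29 CPM in KO libraries. The labels do not place the deletion within the gene, so these values do not check the knockout. Regions lay in 6 of 10 B cell marker genes, and their sum was 19.01 to 67.5 CPM. Ebf1 (8.53 to 44.1 CPM) and Pax5 (3.65 to 14.3 CPM) were highest, while Cd79a (0 to 0.491 CPM) and Cd22 (0 to 0.360 CPM) were at 0 in some libraries. Of 7 T cell markers 2 had regions, with Bcl11b at 0 and Cd247 at or below 0.126 CPM. The 3 of 5 myeloid markers with regions summed to 0.321 to 1.24 CPM and the 3 of 5 plasma cell markers to 0.244 to 1.33 CPM, all 6 with counts. The sources used here do not state how the regions were picked, whether they are exonic or intronic, or whether counting used strand. RNA from a region therefore cannot be assigned to the annotated transcript rather than to an enhancer or an antisense RNA inside it.

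The sequences below are the RefSeq promoter windows, 250 bases before to 50 bases after an annotated start, of lncRNA genes on which the results turn. Of the 825 genes, 650 have such a window in the table used. They are shown 5′ to 3′ on the gene's strand, with motif matches on either strand in capitals. AP-1 was searched as TGANTCA. The motif of PU.1 was GAGGAAGT. For the TATA box the letters were TATAAA. The octamer bound by Oct factors was ATGCAAAT. The CRE motif was TGACGTCA, and NF-kB was searched by its consensus. Gm31718 and Gm12610 were raised in the knockout lines, E030011O05Rik likewise, Gm32164 was induced on activation, and Morrbid responded differently by genotype.
Gm31718 start, chr8:126853199-126853498, minus strand: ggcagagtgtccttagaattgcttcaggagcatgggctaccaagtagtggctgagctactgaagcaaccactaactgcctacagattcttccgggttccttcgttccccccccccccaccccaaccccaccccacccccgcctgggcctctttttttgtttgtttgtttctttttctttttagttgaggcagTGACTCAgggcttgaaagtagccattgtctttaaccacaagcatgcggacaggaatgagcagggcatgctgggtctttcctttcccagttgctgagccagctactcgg
E030011O05Rik start, chr9:96752782-96753081, minus strand: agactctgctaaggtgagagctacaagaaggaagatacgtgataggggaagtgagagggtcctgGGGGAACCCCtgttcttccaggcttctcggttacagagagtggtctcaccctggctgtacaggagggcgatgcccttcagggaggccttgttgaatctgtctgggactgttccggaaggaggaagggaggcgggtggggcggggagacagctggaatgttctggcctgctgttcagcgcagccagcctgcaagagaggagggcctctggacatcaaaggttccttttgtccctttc
Gm12610 start, chr4:89294930-89295229, plus strand: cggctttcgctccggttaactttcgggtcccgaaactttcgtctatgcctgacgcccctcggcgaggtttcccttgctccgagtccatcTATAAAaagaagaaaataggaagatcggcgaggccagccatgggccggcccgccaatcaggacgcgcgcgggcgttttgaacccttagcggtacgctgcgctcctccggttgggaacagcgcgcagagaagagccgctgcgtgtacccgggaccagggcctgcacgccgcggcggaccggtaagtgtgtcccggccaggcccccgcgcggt
Gm32164 start, chr7:90060413-90060712, minus strand: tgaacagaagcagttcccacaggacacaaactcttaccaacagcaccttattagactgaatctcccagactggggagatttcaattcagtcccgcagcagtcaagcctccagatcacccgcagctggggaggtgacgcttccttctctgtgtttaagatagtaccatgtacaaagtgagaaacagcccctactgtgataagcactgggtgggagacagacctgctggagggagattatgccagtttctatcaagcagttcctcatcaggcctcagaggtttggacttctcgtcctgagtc
Morrbid start, chr2:128429302-128429601, minus strand: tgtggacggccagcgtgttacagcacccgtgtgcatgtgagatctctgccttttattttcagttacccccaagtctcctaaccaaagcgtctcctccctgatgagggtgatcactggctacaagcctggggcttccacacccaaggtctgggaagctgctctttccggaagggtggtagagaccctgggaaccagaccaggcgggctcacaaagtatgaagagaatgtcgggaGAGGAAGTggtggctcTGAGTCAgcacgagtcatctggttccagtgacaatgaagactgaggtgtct
The Gm31718 window holds TGACTCA at 58 bases before the start, and the Morrbid window holds TGAGTCA across the start beside GAGGAAGT. The AP-1 letters occur in 7.81% of all 32851 promoter windows and in 10.6% of the 918 windows of the lncRNA genes. Among the 77 windows of lncRNA genes called higher on activation in the WT lines the share was 19.5%, or 15 windows, and among the 34 windows of those called lower it was 8.82%. In the KO lines the shares were 15.3% of 111 windows of genes called higher and 20.0%, or 4 windows, of 20 of those called lower. A gene can have several windows: the 77 came from 51 genes, the 34 from 20, the 111 from 74 and the 20 from 12. In the 77 windows the octamer was also at a higher share than in the 918 (5.19% and 2.18%). The other motifs had lower shares: NF-kB 3.90% and 7.30%, TATA box 10.39% and 15.25%, PU.1 1.30% and 2.72%, and CRE 0% and 1.20%. A match describes letters in a window and not a bound site. The gene start in the Gm12610 window lay 55.09 to 209.9 kb from the member regions of that gene, and the start in the Morrbid window 12.42 to 109.9 kb. These 2 windows therefore do not cover the RNA measured.

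At the level of the whole class, lncRNA region RNA was highest in the activated knockout cells. The unactivated WT libraries read 361 to 537 CPM (median 394) and the unactivated KO libraries 385 to 448 CPM (median 416), so these groups overlapped. The activated WT libraries read 421 to 480 CPM (median 458), and the activated KO libraries read 535 to 591 CPM (median 573). All 6 activated KO libraries lay above all 6 activated WT libraries. Set against RNA from regions in coding genes of the same libraries, the lncRNA share was 4.95% ± 0.24 (SD, n = 6) in activated WT and 5.85% ± 0.20 (SD, n = 6) in activated KO, and again the libraries did not overlap. The summed B cell marker regions also differed between these groups, at 27.9 to 49.5 CPM in activated WT and 48.2 to 67.5 CPM in activated KO libraries, and their part in the result was not tested.

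A few genes carried most of that difference. Of the 112 CPM by which the activated KO mean exceeded the activated WT mean, Gm31718 accounted for 31.9%, and Gm31718, Gm31813, Gm12610, Gm33524 and Gm30117 together for 59.0%. The 112 CPM is net of genes that were lower in KO cells. These 5 were picked for the largest KO minus WT difference in these same libraries, so leaving them out had to narrow the gap. Without them the activated WT libraries read 398 to 452 CPM and the activated KO libraries 450 to 496 CPM, and the groups overlapped slightly.

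**Figure D1:**
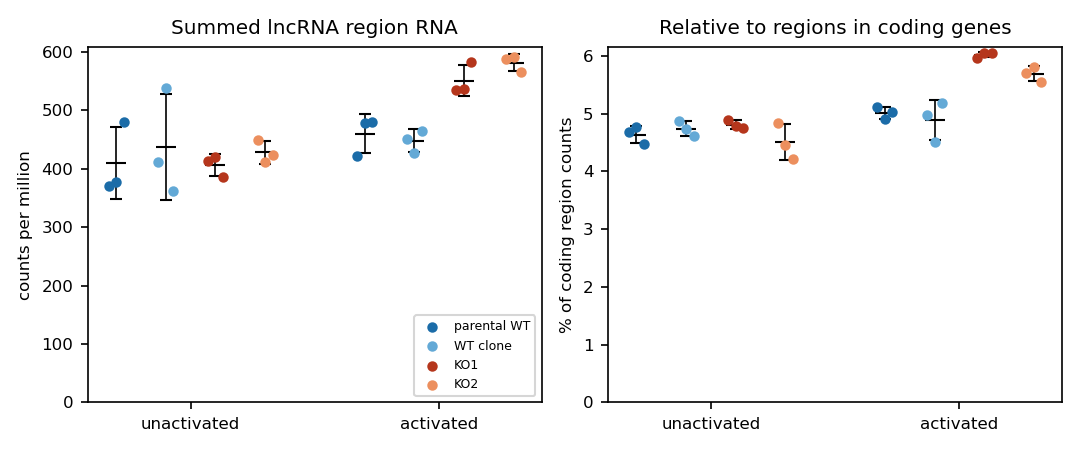
RNA from the 1060 lncRNA regions in each library, summed in CPM (left) and as a percentage of the RNA from regions in coding genes (right), by line and state, with points for libraries and black bars for the mean ± SD of 3. The activated KO libraries, from 535 to 591 CPM, lie above the activated WT libraries, which reach 480 CPM.

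By level, the highest sums came from genes with 1 to 15 member regions. Pvt1, with 15, a lncRNA beside the Myc oncogene that is a frequent site of viral insertion and translocation in lymphoid tumours, came first. It was followed by Gm31718 with 8 regions, AU020206 with 1, and Lncpint, a p53-induced lncRNA, with 13. The 12 highest genes made up 30.2% of the class. Per kilobase of kallisto's effective region length, LOC115487945 (22.3 CPM per kb) and AU020206 (18.4 CPM per kb) were highest, while Pvt1, spread over 15 regions, read 1.10 CPM per kb. Chaserr, a lncRNA upstream of the remodeller gene Chd2 that restrains it, was the twelfth highest by level.

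The comparison of knockout with wild type asks which lncRNA regions depend on ZMYND8 in each state. Tests were run with edgeR across the whole table, and 435 of the 825 gene sums and 529 of the 1060 regions passed the filter on low counts. The other 390 genes and 531 regions were too low to test. A gene could pass through the group where it is high, so counts among tested genes are descriptions beside those of all tested features.

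In unactivated cells, 28 lncRNA gene sums were higher and 15 lower in the KO lines (adjusted p under 0.05). Of all 4319 gene sums tested, 3.54% were called higher and 3.15% lower. The 28 are 6.44% and the 15 are 3.45% of the 435. Singly, 37 regions were higher and 15 lower, against 3.75% and 2.64% of the 11264 regions tested. In activated cells, 52 sums were higher and 7 lower, against 6.37% and 2.41% of all gene sums. Singly, 56 regions were higher and 7 lower, against 5.66% and 1.35% of all regions. The median log2 change of the tested lncRNA sums was 0.03 unactivated and 0.12 activated, beside -0.03 and 0.07 over all gene sums. Scaling to region counts alone moved the median of all gene sums to -0.05 in activated cells. The called lncRNA sums then numbered 35 higher and 12 lower, against 205 and 182 of all 4319 gene sums. In unactivated cells they then numbered 29 higher and 22 lower, against 177 and 178 of all gene sums. Of the 43 sums called in unactivated cells 51.2% were also called in activated cells, which is 37.3% of the 59 called there: 18 were higher in both states, 3 were lower in both, and Gm34346 was called lower unactivated and higher activated. The overlap over all gene sums is not given, so this one is not read as particular to lncRNA genes. The Gm34346 calls were not stable: the unactivated one (log2 change -0.45) was lost in 13 of 27 alternatives, 8 of them single libraries left out, and was -0.19 against parental WT alone. The activated one (0.47) was lost in 8 of 26, and was 0.17 with KO1 alone.

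Gm31718, on chromosome 8 at 126804707 to 126908370, was the most abundant lncRNA raised in the knockouts. It read 4.19 to 5.39 CPM (median 4.63) in unactivated WT libraries and 11.4 to 16.9 CPM (median 14.6) in unactivated KO libraries. After activation it read 9.21 to 14.1 CPM (median 10.9) in WT and 43.5 to 52.8 CPM (median 47.0) in KO libraries. The KO libraries lay above the WT libraries in each state, 3.16-fold and 4.11-fold on the group means. The log2 changes were 1.66 ± 0.13 (SE) and 2.04 ± 0.13 (adjusted p = 4.1e-09 and 6.6e-11). It also rose with activation, by a log2 change of 1.29 ± 0.13 in WT and 1.68 ± 0.13 in KO lines, and these did not differ past the threshold (log2 difference 0.39 ± 0.18, adjusted p = 0.45).

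The raised RNA was unevenly spread along Gm31718. Its region at chr8:126824416-126828603 ends 102 bases from an annotated start, which is not the start of the window printed above. This region rose by log2 3.07 ± 0.28 in unactivated cells, from a mean of 0.722 to 5.86 CPM. The region at 126838731 to 126840303 rose by 2.75 ± 0.27. The region at 126881538 to 126887786 rose by 0.74 in unactivated but 2.02 in activated cells, where it went from 2.49 to 10.2 CPM. All 7 tested regions had positive log2 changes in both states, and the eighth, with 0.163 to 0.202 CPM in the group means, was too low to test.

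Gm33524, on chromosome 14 at 69999209 to 70063615, had the largest fold difference of the named genes raised in the knockouts. Its single region read 0.378 to 0.885 CPM in unactivated WT and 2.89 to 6.58 CPM in unactivated KO libraries. After activation it read 0.386 to 1.17 CPM in WT and 4.33 to 9.51 CPM in KO libraries. The groups did not overlap in either state, with log2 changes of 2.88 ± 0.22 and 3.21 ± 0.21 (adjusted p = 3.6e-09 and 8.6e-11). The coding gene Pebp4 overlaps the span of Gm33524 on the map. Its own regions were low, at 0.0319 to 0.924 CPM (median 0.132) in unactivated WT and 0 to 0.0937 CPM (median 0.0307) in unactivated KO libraries. These ranges overlapped, but Pebp4 was called lower in unactivated KO cells (log2 change -3.14 ± 0.82, adjusted p = 0.017). The unactivated WT mean of Pebp4 was 0.357 CPM (SD 0.415), above the median, so high values in part of the libraries carry it. Whether this call holds without the 2 libraries that stand apart was not tested. In activated cells the Pebp4 change did not pass the test (-1.72 ± 0.77, adjusted p = 0.21).

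Gm31813, on chromosome 3 at 21863062 to 21964346, read 2.46 to 4.23 CPM in unactivated WT and 5.73 to 7.82 CPM in unactivated KO libraries. After activation it read 6.43 to 8.89 CPM in WT and 18.7 to 23.8 CPM in KO libraries, with log2 changes of 0.97 ± 0.14 and 1.46 ± 0.13. Its tested region of lowest coordinate had log2 changes of -0.03 and 0.11, while the 3 further on rose by 1.10 to 1.75 in unactivated cells. Gm12610, on chromosome 4 at 89295180 to 89518621, overlaps Cdkn2b, a cell cycle inhibitor gene, on the map. Its 9 member regions together read 1.04 to 1.85 CPM in unactivated WT and 2.63 to 3.06 CPM in unactivated KO libraries, and 2.55 to 4.96 CPM against 9.33 to 13.6 CPM after activation. Neither pair of groups overlapped, and the activated log2 change was 1.67 ± 0.17 (adjusted p = 1.2e-07).

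**Figure D2:**
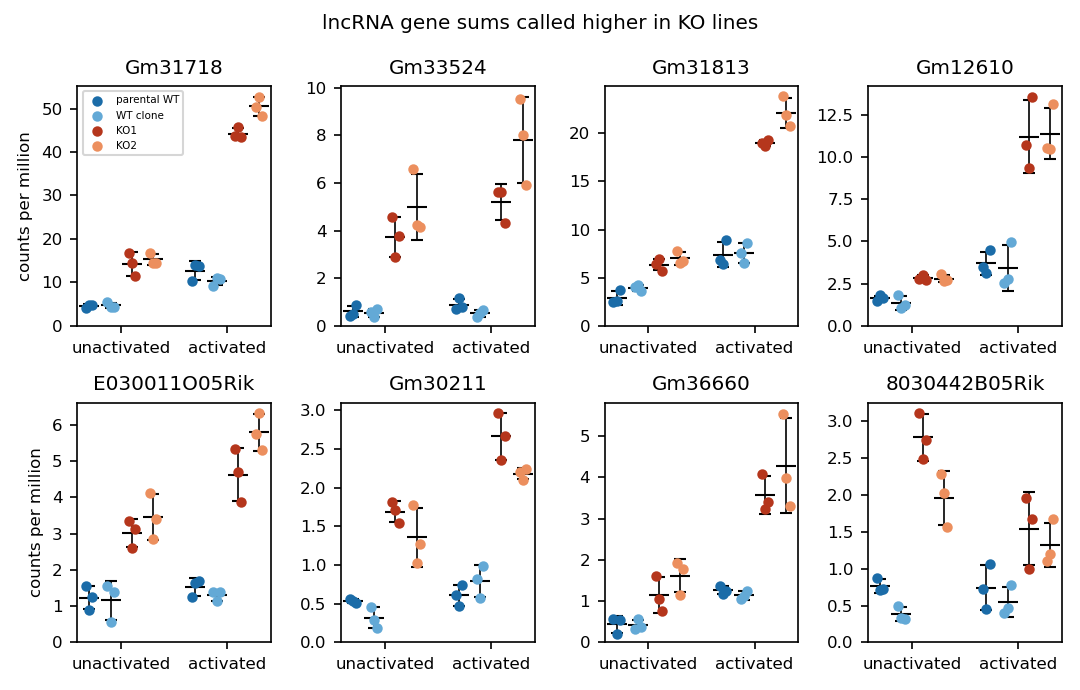
Levels of 8 lncRNA genes called higher in the KO lines, in CPM (axes start at 0), with points for libraries, colours for lines and black bars for the mean ± SD of 3 libraries. Gm31718 reaches 52.8 CPM in activated KO cells, where the WT libraries reach 14.1 CPM, and 8030442B05Rik is highest in unactivated KO cells.

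Another 4 of the genes called higher in the knockouts are given with their levels. E030011O05Rik, which overlaps Zbtb38 (a zinc finger protein that binds methylated DNA), read 0.554 to 1.55 CPM in unactivated WT and 2.60 to 4.13 CPM in unactivated KO libraries, with log2 changes of 1.42 ± 0.19 unactivated and 1.87 ± 0.18 activated. Zbtb38's own regions had log2 changes of 0.92 ± 0.17 activated (adjusted p = 0.00081) and 0.27 ± 0.18 unactivated (adjusted p = 0.46). The difference between the states did not pass the test (0.65 ± 0.25, adjusted p = 0.31). Gm36660, 21716 bases from Zfp36l1 (an RNA-binding protein that promotes mRNA decay), read 0.206 to 0.571 CPM in WT and 0.769 to 1.93 CPM in KO libraries unactivated, a log2 change of 1.66 ± 0.23. Gm30211 read 0.191 to 0.561 CPM and 1.03 to 1.82 CPM in the same groups. 8030442B05Rik, 37140 bases from Prkcq (a protein kinase C of lymphocyte signalling), read 0.323 to 0.872 CPM in unactivated WT and 1.56 to 3.11 CPM in unactivated KO libraries. For each of these 4 genes the unactivated groups did not overlap.

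Other genes were called for the knockout in 1 state and not in the other. Gm46119 read 0.0707 to 0.639 CPM in unactivated WT and 1.03 to 1.68 CPM in unactivated KO libraries (log2 change 2.20 ± 0.24), but at most 0.145 CPM in any activated library. Gm30117 read 0.983 to 1.51 CPM in activated WT and 3.94 to 5.99 CPM in activated KO libraries (log2 change 1.99 ± 0.21), while the unactivated groups overlapped at 0.0336 to 0.573 CPM and 0.183 to 0.543 CPM. The test of the difference between states did not pass for either gene (adjusted p = 0.26 for Gm46119 and 0.23 for Gm30117).

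Fewer genes were lower in the knockouts. Gm37125 was lower in both states, at 0.632 to 1.32 CPM in WT and 0.318 to 0.617 CPM in KO libraries unactivated, and 1.01 to 2.05 CPM and 0.559 to 0.982 CPM activated (log2 changes -0.97 ± 0.21 and -0.95 ± 0.18). Gm33046, which overlaps Cnot4 (a ubiquitin ligase of the mRNA deadenylase complex), read 4.59 to 8.002 CPM in unactivated WT and 2.36 to 3.41 CPM in unactivated KO libraries (log2 change -0.98 ± 0.16). Gm13807, 1272 bases from the tetraspanin gene Cd82, read 1.12 to 2.42 CPM in activated WT and 0.726 to 1.28 CPM in activated KO libraries (log2 change -1.10 ± 0.21, adjusted p = 0.00086), with some overlap. LOC115487945 read 6.17 to 12.8 CPM in unactivated WT and 3.98 to 5.87 CPM in unactivated KO libraries.

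The 3 largest decreases in unactivated cells rest on the libraries that stand apart. Gad1os, antisense to a gene for glutamate decarboxylase by its name, read 14.9 CPM in WT replicate 3 and 51.5 CPM in WT clone replicate 2, but 0.274 to 0.808 CPM in the other 4 unactivated WT libraries and 0.222 to 1.30 CPM in the KO libraries. Gm35551 read 13.8 and 47.9 CPM in the same 2 libraries and Gm38910 read 2.71 and 10.8 CPM. Gad1os also read 11.1 CPM in WT activated replicate 2. The log2 changes were -3.76 for Gad1os, -3.21 for Gm35551 and -3.17 for Gm38910, and without these 2 libraries they were 0.55, 0.75 and 0.36. Of the 15 sums called lower, 9 were also called without the 2 libraries, as were 23 of the 28 called higher.

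Regions of one gene did not always move together. In Pvt1, on chromosome 15 at 62037986 to 62260215, the sum read 10.9 to 27.1 CPM in unactivated WT and 16.2 to 26.6 CPM in unactivated KO libraries, and its log2 change was 0.23 ± 0.18 (adjusted p = 0.55). Within it, the regions at 62177536 and 62180942, 139.6 and 143.0 kb from the gene's lowest coordinate, had log2 changes of 1.69 and 1.34 with the knockout before activation (adjusted p = 0.0047 and 0.00081, single regions), from 0.679 to 2.21 CPM and from 1.17 to 2.99 CPM. The regions at 62139006 and 62239833 fell by 2.07 and 1.19 on the log2 scale (adjusted p = 0.045 and 0.024, single regions), from 0.302 to 0.0685 CPM and from 0.350 to 0.173 CPM. Of the 63 lncRNA genes with several tested regions, 18 had a called region in this comparison, 7 had more than 1, and Pvt1 was the gene with called regions of both signs.

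**Figure D3:**
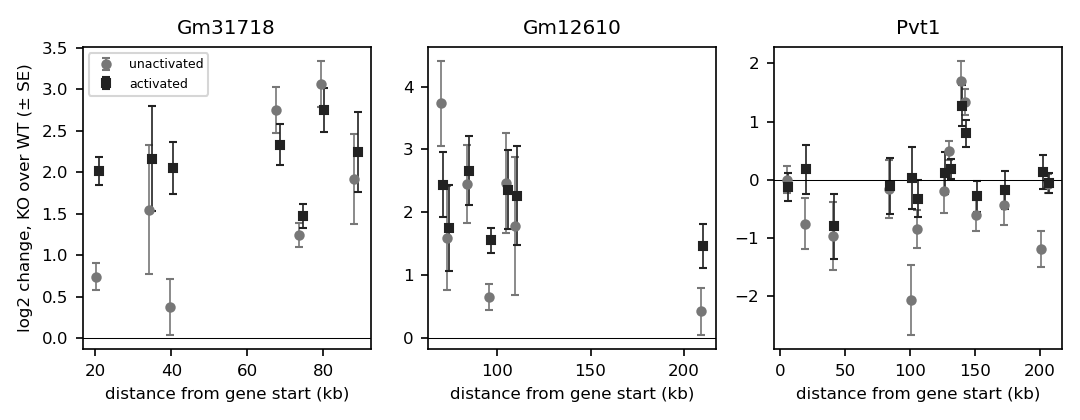
Log2 change, KO over WT, of each tested region of Gm31718, Gm12610 and Pvt1 against its distance in kb from the gene start (for Pvt1, from its lowest coordinate), unactivated (grey circles) and activated (black squares), with bars of 1 SE. All tested Gm31718 and Gm12610 regions lie above 0, while the Pvt1 regions lie on both sides in unactivated cells, from -2.07 to 1.69.

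More lncRNA genes were called for activation than for the knockout. In the WT lines 64 sums were higher and 24 lower, against 16.3% and 5.6% of all gene sums, and in the KO lines 96 were higher and 19 lower, against 24% and 4.31%. Singly, 84 regions were higher and 27 lower in the WT lines, against 14.3% and 4.91% of all regions, and 112 were higher and 16 lower in the KO lines, against 19.6% and 3.52%. The lncRNA shares were 14.7% and 5.52% in the WT lines and 22.1% and 4.37% in the KO lines, near those of all gene sums. The split depends on scaling: with libraries scaled to region counts alone, 43 were higher and 49 lower in the WT lines and 53 higher and 52 lower in the KO lines. Over all 4319 gene sums these were then 477 and 509 in the WT lines and 531 and 522 in the KO lines. The median of all gene sums moved from 0.18 to -0.04 and from 0.27 to -0.06. Of the 88 sums called in the WT lines 72.7% were called in the KO lines, all 64 in the same direction, which is 55.7% of the 115 called there. The same overlap over all gene sums is not given, so this one is not read as particular to lncRNA genes.

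Gm32164, on chromosome 7 at 90055375 to 90063130, was close to absent before activation. Its region lies across an annotated start, in the window printed above. It read 0 to 0.134 CPM in unactivated WT libraries and 2.33 to 4.26 CPM in activated WT libraries, and 0 to 0.0318 CPM and 1.69 to 3.31 CPM in the KO lines. In the WT lines 11 counts became 652, a ratio of 53.9 with a 95% exact interval of 29.9 to 108, and in the KO lines 3 counts became 483, a ratio of 155 with an interval of 52.9 to 756. These intervals cover counting error only. The nearest coding gene is Picalm, an adaptor of clathrin-coated vesicles 67062 bases away, whose regions rose by log2 1.92 ± 0.21 in WT and 1.82 ± 0.22 in KO lines.

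Other induced lncRNA genes were at low levels in unactivated cells. Gm34907, 442 bases from Scel, read 1.04 to 1.53 CPM unactivated and 4.62 to 9.39 CPM activated in the WT lines, and 0.964 to 1.26 CPM and 5.77 to 11.2 CPM in the KO lines (log2 changes 2.57 ± 0.19 and 3.08 ± 0.19). Gm36723 read 0.260 to 0.729 CPM and 3.19 to 5.62 CPM in the WT lines, and 0.4298 to 0.668 CPM and 1.76 to 4.08 CPM in the KO lines (log2 changes 3.16 ± 0.22 and 2.25 ± 0.22). Gm13807, beside Cd82, read 0.101 to 0.474 CPM and 1.12 to 2.42 CPM in the WT lines (log2 change 2.83 ± 0.25), and Cd82 regions rose by 2.36 ± 0.17 in the same lines. Gm38673, 2966 bases from Dock10 (a guanine nucleotide exchange factor of lymphocytes), read 0 to 0.148 CPM and 0.319 to 0.874 CPM in the WT lines, and Dock10 regions rose by 1.01 ± 0.19. In every one of these pairs the activated libraries lay above the unactivated ones.

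**Figure D4:**
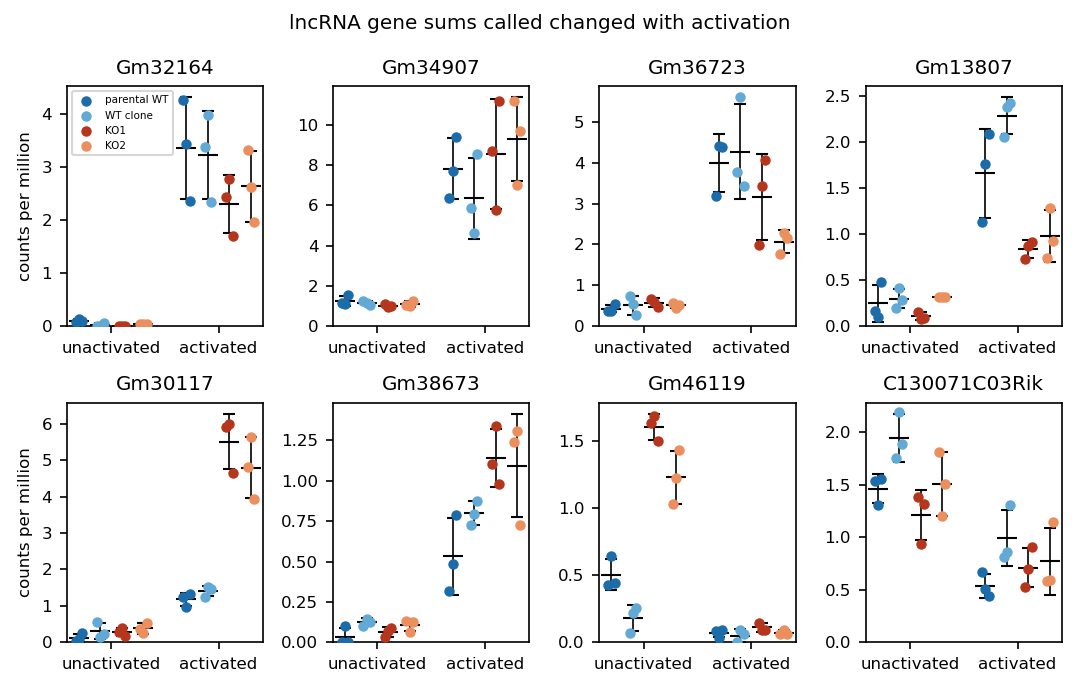
Levels of 8 lncRNA genes called changed with activation, in CPM (axes start at 0), with points for libraries, colours for lines and black bars for the mean ± SD of 3 libraries. Gm32164 stays at or below 0.134 CPM in all unactivated libraries and reaches 4.26 CPM after activation, while Gm46119 and C130071C03Rik are lower after activation.

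Fewer genes were lower after activation. C130071C03Rik, a lncRNA gene 54302 bases from Mef2c (a transcription factor of B cells) whose span holds the hairpin of miR-9, read 1.31 to 2.19 CPM unactivated and 0.440 to 1.30 CPM activated in the WT lines (log2 change -1.19 ± 0.20). In the KO lines it read 0.938 to 1.82 CPM and 0.531 to 1.14 CPM (-0.86 ± 0.20). Gm46119 fell by 3.91 ± 0.28 on the log2 scale in the KO lines, from 1.03 to 1.68 CPM to 0.0608 to 0.145 CPM. AU020206 was called lower in the WT lines (log2 change -0.73 ± 0.23, adjusted p = 0.023), but read 40.2 and 42.7 CPM in the 2 libraries that stand apart, and without them its change was -0.18. The call was also lost without WT activated replicate 1.

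Lists of known lncRNAs were compared where a member region was present, which held for 11 of the 59 listed genes. None of the 9 genes of nuclear architecture had one. Mir100hg, the host gene of miR-100, let-7a-2 and miR-125b-1, rose with activation from 0 to 0.111 CPM to 0.192 to 0.412 CPM in the WT lines (log2 change 2.44 ± 0.48, adjusted p = 0.00039) and from 0 to 0.127 CPM to 0.189 to 0.348 CPM in the KO lines (3.196 ± 0.57). Mature miRNAs encoded in its span are shown with the seed, bases 2 to 8, in capitals, and their own levels were not measured.
mmu-miR-100-5p: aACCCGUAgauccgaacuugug
mmu-let-7a-2-3p: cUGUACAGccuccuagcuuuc
mmu-miR-125b-5p: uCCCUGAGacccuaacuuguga
Ftx, a noncoding activator of Xist at the X-inactivation centre, was called higher in activated KO cells, at 0.922 to 1.70 CPM in WT and 1.33 to 2.79 CPM in KO libraries (log2 change 0.68 ± 0.18, adjusted p = 0.013), a call lost without KO2 activated replicate 1. Airn, the antisense RNA that silences the imprinted Igf2r cluster, was called higher on activation in the KO lines, at 0.182 to 0.407 CPM unactivated and 0.374 to 0.711 CPM activated (log2 change 1.05 ± 0.36, adjusted p = 0.030). That call was lost when any one of 7 of the 12 KO libraries was left out. Snhg14, the host of imprinted snoRNAs, passed the test in none of the 5 comparisons (smallest adjusted p = 0.099). Of the 6 immune lncRNAs with a member region 4 were tested, and Morrbid was the one with a call. Mir99ahg, Ifngas1 and Mirt1 were too low to test. Lncpint read 8.33 to 21.8 CPM in WT and 9.98 to 21.4 CPM in KO libraries over both states, with no call as a sum, while its 3 tested regions nearest the gene start were called lower on activation in the WT lines (log2 changes -1.84, -1.09 and -1.06).

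Whether activation acted differently in the knockouts was tested as the difference between the activation effects. 4 lncRNA sums were called higher and 0 lower, against 0.556% and 0.185% of all gene sums. By region, 6 were called higher and 0 lower, against 0.568% and 0.178%. At an unadjusted p under 0.05, 50 sums were higher and 12 lower by edgeR. DESeq2 called 4 higher and 0 lower, against 43 and 10 of the 3061 gene sums it tested. For regions these were 45 and 14, and DESeq2 called 10 higher and 1 lower. The unadjusted counts over all sums or regions are not given, so no excess among lncRNA genes can be read from them. The median log2 difference was 0.15 over the tested lncRNA sums and 0.12 over all gene sums.

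Morrbid, a lncRNA that restrains the proapoptotic gene Bcl2l11 in short-lived myeloid cells, lies on chromosome 2 at 128298663 to 128429351, with 7 member regions. In the WT lines it read 1.04 to 2.56 CPM unactivated and 1.13 to 2.53 CPM activated. In the KO lines it read 0.692 to 1.36 CPM unactivated and 1.77 to 3.06 CPM activated, with no overlap. The activation effect was 0.05 ± 0.22 in WT and 1.35 ± 0.22 in KO lines, a difference of 1.30 ± 0.31 (adjusted p = 0.046), and this call was lost when any one of 18 of the 24 libraries was left out. The difference stayed between 1.11 and 1.43 over all single omissions, and was 1.03, not called, without the 2 libraries that stand apart. Morrbid was called lower in unactivated KO cells (log2 change -0.78 ± 0.23, adjusted p = 0.039), a call lost in 15 of 27 alternatives, 8 of them single libraries left out. That change was -0.51 without the 2 libraries that stand apart, and -0.91 to -0.59 over single omissions. Bcl2l11 regions rose on activation by 0.74 ± 0.22 in WT and 1.32 ± 0.23 in KO lines, and the difference did not pass the test (0.58 ± 0.31, adjusted p = 0.52). For knockout against wild type Bcl2l11 was not called in either state (adjusted p = 0.13 unactivated and 0.95 activated).

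Gm34346 read 7.80 to 15.8 CPM unactivated and 7.43 to 11.1 CPM activated in the WT lines, and 6.78 to 10.0 CPM and 10.4 to 17.0 CPM in the KO lines (difference 0.92 ± 0.19, adjusted p = 0.015). The parental line read 7.80 to 11.35 CPM unactivated and 8.41 to 10.04 CPM activated, and the clone 12.91 to 15.85 CPM and 7.43 to 11.14 CPM. The call was lost in 4 of 38 alternatives: KO1 alone (0.76), against parental WT alone (0.67), TMM over regions only (0.84) and counts summed per line (0.96). Gm4827, 107155 bases from Cd47 (the receptor that signals against phagocytosis), read 0.584 to 0.971 CPM and 0.918 to 2.97 CPM in the WT lines, and 0.347 to 0.932 CPM and 2.29 to 3.30 CPM in the KO lines (difference 1.23 ± 0.24, adjusted p = 0.013). The fourth sum called, LOC115485728, was named after its values were seen. It lies 104361 bases from the kinase gene Dyrk2 and read 0.398 to 0.988 CPM and 0.201 to 0.794 CPM in the WT lines, and 0.0991 to 0.204 CPM and 0.257 to 0.735 CPM in the KO lines (difference 1.97 ± 0.43, adjusted p = 0.027). For Gm4827 the WT lines also differed from each other after activation, at a mean of 2.48 CPM in the parental line and 1.15 CPM in the clone (log2 change -1.10 ± 0.22, adjusted p = 0.042). Its call for the difference between genotypes was lost in 3 of 38 alternatives: KO2 alone (0.88), against parental WT alone (0.92) and counts summed per line (1.08).

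**Figure D5:**
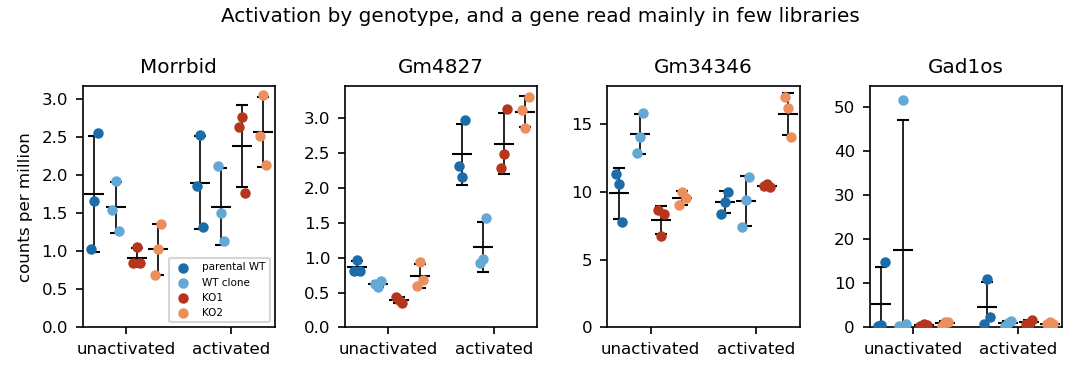
Levels of Morrbid, Gm4827, Gm34346 and Gad1os in CPM (axes start at 0), with points for libraries, colours for lines and black bars for the mean ± SD of 3 libraries. Morrbid, Gm4827 and Gm34346 are higher in all activated KO libraries than in all unactivated KO libraries, and Gad1os reaches 51.5 CPM in 1 unactivated WT clone library.

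Few differences were called between lines of one genotype, in tests of 3 libraries against 3. The tests of genotype set 6 libraries against 6, so the counts of calls cannot be compared directly. Between the WT lines, 0 lncRNA sums were called in unactivated and 1 (Gm4827) in activated cells, against 0.0926% and 0.0926% of all gene sums. Between KO1 and KO2, 0 were called in either state, against 0.0232% and 0.162%. At an unadjusted p under 0.05, 39 sums differed between the WT lines unactivated by edgeR, and 26 and 33 between the KO lines unactivated and activated. DESeq2 called 0 in these 3 comparisons. By region, 1 was called between the WT lines in each state, against 0.107% and 0.186% of all regions, and 0 between the KO lines, against 0.151% and 0.169%. Between the KO lines 27 regions unactivated and 24 activated had an unadjusted p under 0.05 by edgeR, and DESeq2 called 2 and 1. The unadjusted counts over all sums or regions are not given, so those for lncRNA genes are a description.

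The coding genes beside the lncRNA genes were compared with them. The nearest coding gene overlapped 201 of the 825 lncRNA genes and lay within 10000 bases of 425. For 194 tested lncRNA genes the nearest coding gene also had a tested region sum. On activation in the KO lines 139 of these 194 pairs had the same sign, and of 31 pairs in which both were called 30 had the same sign. In the WT lines these were 111 of 194, and 13 of 18. The correlation of the log2 changes across the 194 pairs was 0.25 (Pearson) in the KO and 0.17 in the WT lines. For knockout against wild type it was -0.01 unactivated and 0.11 activated. In that comparison 108 and 109 of the 194 pairs had the same sign, as did 3 of 4 and 3 of 3 pairs in which both were called. Most sums called on activation were higher, at 84.8% of all gene sums called in the KO lines and 74.4% in the WT lines. Whether neighbours shared a sign more often than other pairs was not tested. The pairs share libraries and scaling, and genes are not independent replicates.

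Member regions were mostly away from annotated starts. Of the 839 with a start in the promoter table, 30 lay across one, 94 lay within 1000 bases and 367 lay more than 10000 bases away, or 43.7%. Of the regions higher in unactivated KO cells 17 of 25 lay that far away, and of those lower 8 of 11. In activated KO cells these were 23 of 39 for higher and 4 of 6 for lower regions. On activation they were 35 of 64 for higher and 9 of 22 for lower regions in the WT lines, and 48 of 86 and 1 of 9 in the KO lines.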

How the data were processed

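The deposited tables hold estimated counts per target from kallisto 0.43.0 on GRCm38.p5, per the submitters' processing notes, which also name DESeq2. The tables list 171152 targets in each of 24 libraries, and 9 of the series' 33 samples were not used here. The members and gene lists were chosen with earlier results of these data known. Estimated counts were rounded and tested with edgeR 4.0.16 (R 4.3.3, limma 3.58.1) by its quasi-likelihood test. TMM scaling used all 61074 kept targets, over the 8 groups, with both lines of a genotype weighted equally. Counts of 6317 gene sums used the same scaling, and 4319 passed the filter on low counts. P-values were adjusted by Benjamini-Hochberg over all 4319 kept gene sums or, for single regions, over all 61074 kept targets. Of these targets 11264 were regions, and 0.05 was the threshold. CPM are per effective library size, and SE is the absolute log2 change over the square root of F. Rounding and kallisto's division of shared reads limit low values. Named genes were the 12 highest by level, those called with 1 sign in all line pairings and at least 1 CPM, members of 6 lists, and up to 5 regions per comparison. LOC115485728 and the neighbouring coding genes were named outside this rule. Promoters and miRNAs came from RefSeq tables of GRCm38.p6. Alternatives were DESeq2 1.42.0, other scaling, filters and thresholds, single lines, sums per line and each library left out. Scaling over regions only, and leaving out the 2 libraries that stand apart, were chosen after seeing the data. The scripts were tested on simulated data.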

Additional observations from a re-analysis of the deposited data

Results flagged for a closer look

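The activation effect differed between genotypes by a test of the difference for 4 lncRNA sums and 6 single regions, given here as KO minus WT log2 values. The sums were Gm34346 (0.92), Gm4827 (1.23), LOC115485728 (1.97) and Morrbid (1.30). The regions were those of Gm32543 (2.06), Gm34346 (0.94), LOC115485728 (1.96), Gm40287 (1.70), Gm4827 (1.29) and Gm31718 (1.28). The Gm31718 region rose from 1.19 to 2.49 CPM in WT and from 1.99 to 10.2 CPM in KO lines, while the Gm31718 sum did not pass this test.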

How the results depend on the processing

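For lncRNA gene sums, the calls for KO against WT unactivated (43) numbered 27 with KO1 alone, 27 with KO2 alone and 22 against parental WT alone. The activated calls (59) numbered 27 with KO1 alone, 36 against parental WT and 37 against the WT clone. Activation calls in the WT lines (88) numbered 50 in the clone and 44 in the parental line, and those in the KO lines (115) numbered 62 in KO1 and 75 in KO2. Calls for the difference in activation (4) numbered 1 with KO1, 1 with KO2, 1 with TMM over regions only, 0 against parental WT and 0 with counts summed per line. The line pair calls (1) numbered 2 at a minimum of 20 counts, 3 at 200 counts, 2 with partial overlap and 2 without the 2 libraries that stand apart. For single regions, calls for KO against WT unactivated (52) numbered 30 with KO1, 31 against parental WT and 8 summed per line. Activated calls (63) numbered 36 with KO1, 29 against parental WT, 41 against the clone and 9 summed per line. Activation calls in WT (111) numbered 55 in the clone, 52 in the parental line, 70 when the 12 WT libraries were fitted alone and 48 summed per line, and those in KO (128) numbered 69 in KO1, 66 in KO2 and 69 summed per line. The difference in activation (6) numbered 11 by DESeq2, 1 with KO1, 2 with KO2, 1 with TMM over regions, 0 against parental WT, 0 summed per line and 2 with no filter. Region line pair calls (2) numbered 6 by DESeq2, 1 with TMM over regions and 0 with no filter. Fits of single lines use fewer libraries, and otherwise the cause was not tested. Leaving out each library gave, for sums in the order above, 29 to 46, 42 to 57, 77 to 102, 108 to 123, 2 to 4 and 0 to 2 calls, and for regions 41 to 55, 47 to 56, 94 to 112, 112 to 125, 4 to 8 and 1 to 2. Of 122 single results, 67 kept their call under every alternative run, and 3 reversed without the 2 libraries that stand apart: Gad1os (0.55), Gm35551 (0.75) and Gm38910 (0.36). Replicate numbers did not pair the libraries (correlation of deviations -0.234 to 0.192, above 0.1 in 6 of 84 pairs). With the replicate block the sums called numbered 49, 65, 92, 124 and 4, and the regions 57, 64, 114, 129 and 8. Depth limits the 390 sums and 531 regions that were too low to test.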
